A study of Mus musculus with 7 samples.

Results

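The genes described here encode the proteins of the mitochondrial ribosome and were chosen by symbol: every row named Mrpl or Mrps followed by a number and at most 1 letter, in liver RNA of old and young adult mice. The rule found 76 genes among the 23366 rows of each table, 47 of the large subunit (Mrpl) and 29 of the small subunit (Mrps). Liver came from C57BL/6 mice, an inbred laboratory strain, at 21 months of age (3 libraries) and at 3 months (4 libraries). The labels give no treatment, genotype change or sex, nor whether each library was a different animal; p-values therefore measure the spread between libraries, which may be technical. Polyadenylated RNA was sequenced, and each gene has an estimated read count and a level scaled for transcript length and sequencing depth (TPM) in each library.

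The mitochondrial ribosome translates the few messenger RNAs encoded by mitochondrial DNA, all of them for subunits of the respiratory chain and ATP synthase. Its RNA is made inside the mitochondrion, while its proteins are encoded in the nucleus, made in the cytosol, imported and assembled on that RNA. Some of them have a counterpart in the bacterial ribosome and others are found only in mitochondria. Liver is rich in mitochondria, and its hepatocytes rely on respiration for fatty acid oxidation, the urea cycle and glucose synthesis.

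Libraries held 6882935 to 10458583 expected counts at 21 months and 4724687 to 11143125 at 3 months, and the ribosomal RNA precursor Rn45s held 20% to 22.4% of them in old livers, against 18.7% to 25.6% in young livers. The hepatocyte list was detected in full and its 8 markers summed to 75110 to 85230 TPM at 21 months and 52190 to 74850 TPM at 3 months. These sums did not overlap between ages, nor did those of some other cells. Stellate and fibroblast markers summed to 134.4 to 172.6 TPM at 21 months and 78.92 to 117 TPM at 3 months, B and plasma cell markers to 8.96 to 46.57 TPM at 21 months and 3.63 to 5.35 TPM at 3 months, and T and NK cell markers, too low for the filter, to 3.24 to 5.76 TPM at 21 months and 0.83 to 1.71 TPM at 3 months. In the stellate and fibroblast list Dcn was higher at 21 months (edgeR adjusted p = 0.00105), while 2 of its 6 genes had negative log2 fold changes. In the B and plasma cell list Igj was higher (edgeR adjusted p = 0.0426). Among hepatocyte markers Alb and Cyp3a11 were higher (edgeR adjusted p = 0.0275 and 0.00751) and Apoa1 lower (0.0176), and 4 of the 8 were negative. Lyve1 of the endothelial list and Sox9 of the bile duct list were lower (edgeR adjusted p = 0.0359 and 0.0102). In those lists 5 of 6 and 4 of 4 tested genes were negative. The part of these markers in the results was not tested. In bulk RNA, fewer cells of a type and less RNA per cell cannot be told apart. Across the family, 21-month replicate 1 stood with the 3-month libraries and apart from the other two of its age, and counts are given with and without it.

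All 76 genes passed the filter on low counts with 19 to 1042 counts per gene and library. Their mean level over the 7 libraries ran from 3.42 TPM for Mrps25 to 207 TPM for Mrpl12, a 60.4-fold range. The median gene stood at 33 TPM, against 10.7 TPM over all 11251 genes tested. Large-subunit genes had a median of 36.1 TPM and small-subunit genes 28 TPM, with ranges of 4.43 to 207 TPM and 3.42 to 84.7 TPM.

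Mrpl12, a stalk protein of the large subunit whose bacterial counterpart recruits translation factors, had 211.8, 199.4 and 193.5 TPM at 21 months and 203.4, 203.2, 236.7 and 198.4 TPM at 3 months. No other member came near it: Mrpl14 followed at 105 ± 11.5 TPM and Mrpl52 at 99.9 ± 6.65 TPM (SD, n = 7), which differ by less than their spread. Mrpl34 had 80.7 TPM and Mrpl38 67.7 TPM. At the low end of the large subunit stood Mrpl19 with 4.43 TPM, Mrpl35 with 7.28 TPM and Mrpl1, a protein of the stalk beside the exit site, with 8.65 TPM. In the small subunit the order began with Mrps34 at 84.7 ± 5.67 TPM and Mrps21 at 83.3 ± 7.03 TPM (SD, n = 7), neighbours within their spread, followed by Mrps24 at 74.4 ± 6.52 TPM. Mrps7, counterpart of a bacterial protein that starts assembly of the head, had 68.7 TPM and Mrps12, a protein of the decoding centre, 63 TPM. Mrps14, Mrps6 and Mrps25 were lowest, at 15.6, 12.3 and 3.42 TPM. TPM divides by transcript length. Mrps25, Mrpl19, Mrpl35 and Mrpl1 have long annotated lengths of 6065, 4996, 3695 and 3119 bases, against a family median of 1045. Their estimated counts were also fractional in 7, 7, 7 and 6 libraries, a sign of reads shared with other genes. Their low ranks, and the 60.4-fold range that ends at Mrps25, are therefore less certain. Mrps24 and Mrps6 also had fractional counts, in 6 and 7 libraries, so their ranks are less certain too.

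**Figure D1:**
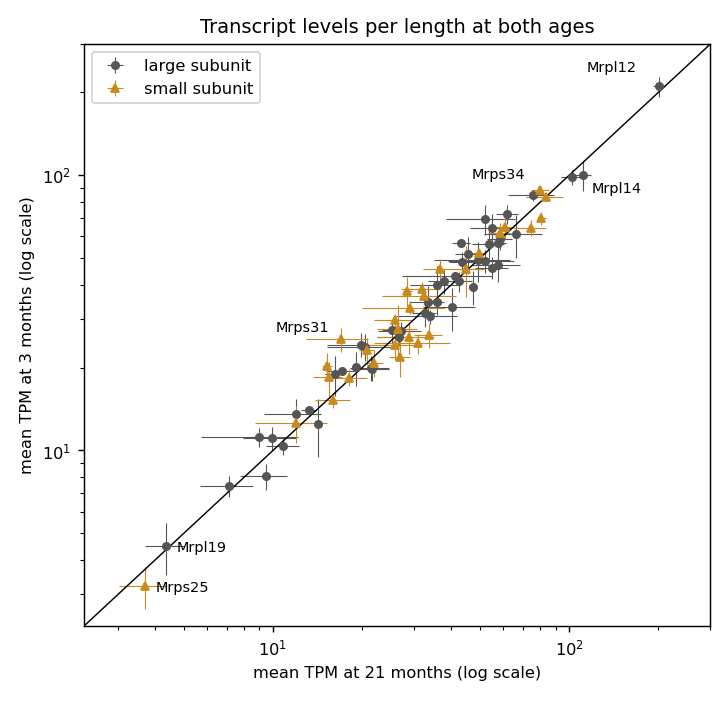
Mean TPM of each gene at 21 months (horizontal) against 3 months (vertical), both on log scales. Points are genes of the large or the small subunit, bars are SD (n = 3 at 21 months, n = 4 at 3 months), and the line marks equality. The genes lie along the line from Mrps25 near 3.42 TPM to Mrpl12 near 207 TPM.

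The order of levels was nearly the same at both ages. Across the 76 genes, TPM at 21 and at 3 months correlated with a Spearman rho of 0.975 and, on the log2 scale, a Pearson r of 0.982, as a description over genes measured in the same libraries. The large-subunit sum divided by the small-subunit sum was 1.89, 1.92 and 1.81 in the 21-month libraries and 1.86, 1.82, 1.94 and 1.81 in the 3-month libraries, so the balance of subunits overlapped between ages.

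The comparison asks whether these transcripts differ between old and young liver. At 21 months, 4 of the 76 were lower and 0 were higher past a threshold of 0.05 on edgeR's quasi-likelihood p, adjusted by Benjamini-Hochberg over all 11251 genes. They were Mrps31 and Mrps5 of the small subunit and Mrpl18 and Mrpl38 of the large one. These 5.26% set beside 11.3% of all genes called, of which 5.86% of genes were lower and 5.47% higher, put the count of lower members near the background. At an unadjusted p under 0.05, 13 members were lower, against a background of 13.9%, and 0 were higher, against 12.7%.

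Most of the family nonetheless lay slightly on the lower side. Of the 76 log2 fold changes (21 months minus 3 months), 57 were negative, 75%, against 50.2% of all genes tested. Their median was -0.149, with quartiles of -0.258 and -0.0186, while the median of all genes was -0.00149. The ages did not overlap for 13 members, each lower at 21 months, which is 17.1%, while the ages did not overlap for 24.2% of all genes, 12.8% on the lower side and 11.3% on the higher. For 52 members (68.4%) the 95% interval of the fold change lay within 1.5-fold in both directions, against 49.4% of all genes. Members share every library, so these counts describe the list and are not a test of it.

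**Figure D2:**
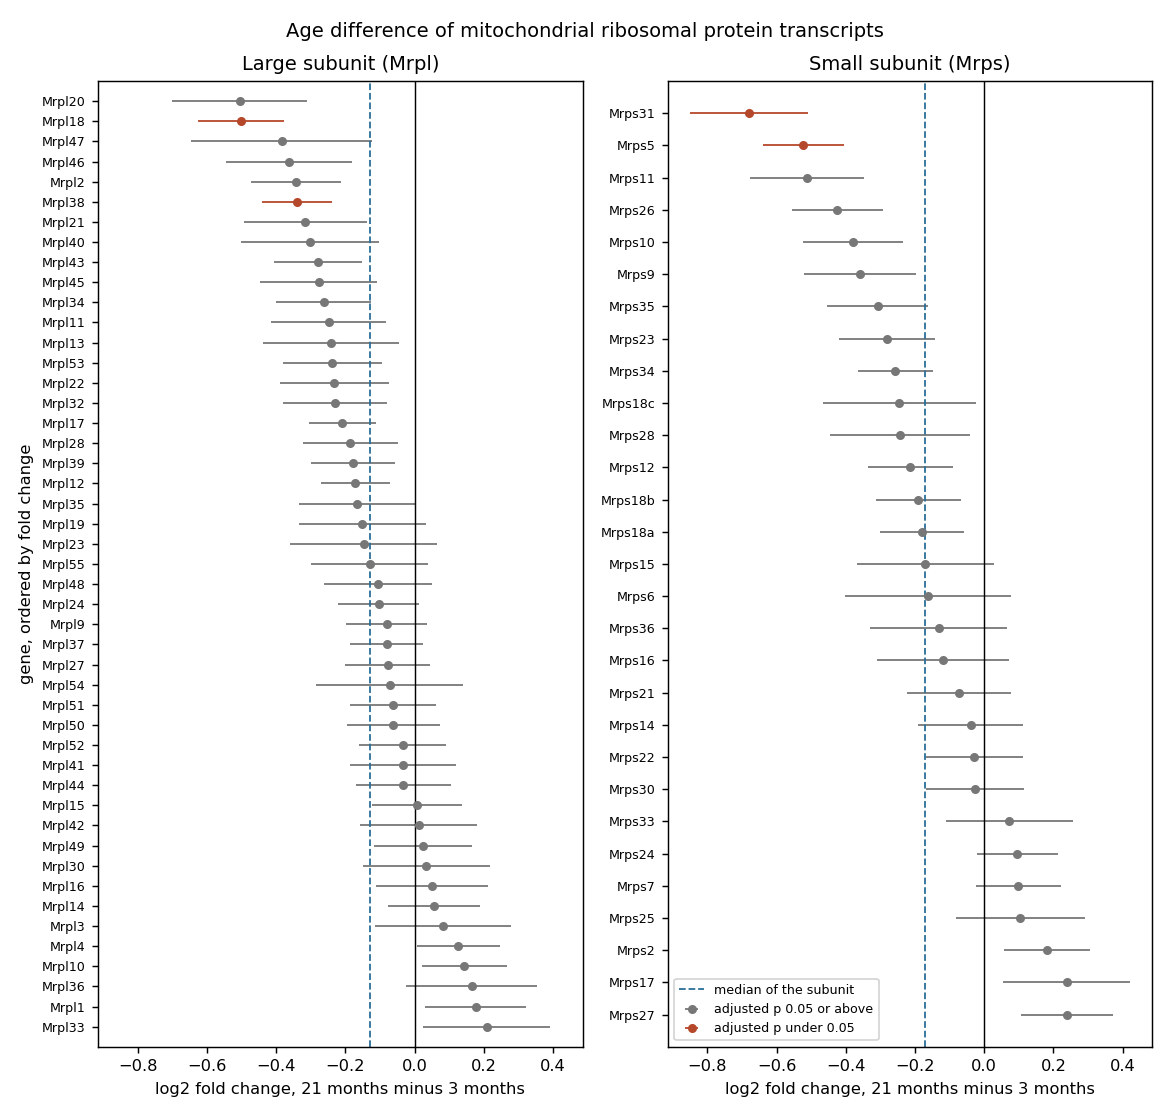
Log2 fold change of each gene (21 months minus 3 months, horizontal), ordered within the large subunit (left) and the small subunit (right). Points are edgeR estimates, bars 1 SE, the dashed line is the subunit's median and coloured points passed the threshold. Of 76 genes 57 lie left of 0, and the 4 that passed are all among them.

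The subunits had similar distributions. Large-subunit genes had a median log2 fold change of -0.13, with 35 of 47 negative and 2 lower past the threshold (4.26%). Small-subunit genes had -0.171, with 22 of 29 negative and 2 lower (6.9%). Of all genes 5.86% were lower. The difference of the medians, large minus small, was 0.0412. Taken within each library on log2 CPM, large minus small had an SD of 0.0523 between libraries of the same age. That SD is the spread of single libraries, not the error of the difference between ages, and no test was made. Mrps18a and Mrps30 carry small-subunit names but sit in the large subunit, and Mrps36 is now placed in the 2-oxoglutarate dehydrogenase complex. With Mrps18a and Mrps30 moved and Mrps36 left out the difference was 0.0507.

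Sorted by descent, each class had a negative median. The mitochondria-specific genes had the less negative median in the large subunit and the more negative one in the small subunit. Mrps18a, Mrps18b, Mrps30, Mrps36 and Mrpl55 were not placed in a class. Of 29 large-subunit genes with a bacterial counterpart, 1 was lower past the threshold and the median was -0.151. Of 17 large-subunit genes specific to mitochondria, 1 was lower and the median was -0.0798. The 16 small-subunit genes with a bacterial counterpart had 1 lower and a median of -0.167, and the 9 specific to mitochondria 1 lower and -0.257. In that order the shares lower were 3.45%, 5.88%, 6.25% and 11.1%, against 5.86% of all genes. Across the 76 genes, which are not independent replicates, the fold change had a Spearman rho of 0.153 with transcript length and 0.127 with mean log2 CPM.

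Mrps31, a mitochondria-specific protein of the small subunit, had the largest fall. Its counts scaled to library size (CPM) were 16.16, 9.497 and 11.06 at 21 months and 21.35, 20.76, 16.99 and 19.96 at 3 months. The ages did not overlap, but 21-month replicate 1 came within 1 CPM of the lowest 3-month library. The means were 12.2 ± 3.48 CPM at 21 months and 19.8 ± 1.94 CPM at 3 months (SD, n = 3 and n = 4), a log2 fold change of -0.68 ± 0.17 SE (edgeR adjusted p = 0.0195). Leaving out replicate 2 or 3 of the old group, or replicate 1, 2 or 4 of the young group, ended the call (edgeR adjusted p = 0.0530 to 0.105).

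Mrps5, counterpart of a bacterial protein near the messenger RNA entry and a gene whose worm (Caenorhabditis elegans) counterpart is known for extending lifespan when silenced, had the smallest adjusted p of the family. It stood at 20.79, 18.44 and 17.96 CPM at 21 months and at 28.83, 26.6, 29.53 and 25.16 CPM at 3 months. The libraries of each age lay close together and apart from the other age. The log2 fold change was -0.52 ± 0.12 SE (edgeR adjusted p = 0.0109). Among the libraries left out in turn, replicate 3 of 21 months ended the call (edgeR adjusted p = 0.0695), as did the TPM scale with limma (0.0573).

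Mrpl18, a protein of the central protuberance that binds 5S ribosomal RNA in bacteria, had 21.58, 18.02 and 17.72 CPM at 21 months and 27.74, 25.23, 25.29 and 30.51 CPM at 3 months. All 21-month libraries lay below all 3-month libraries. The log2 fold change was -0.50 ± 0.12 SE (edgeR adjusted p = 0.0189). The call ended when replicate 2 or 3 of the old group or replicate 4 of the young group was left out (edgeR adjusted p = 0.0561, 0.104 and 0.0627). In the GRCm38.p6 gene table Mrpl18 overlaps Tcp1, a chaperonin subunit gene that had 45.7 CPM at 21 months and 55.6 CPM at 3 months. The counting is not stated to use strand, so reads where the genes overlap cannot be told apart for certain. By the same annotation 24 of the 76 members overlap another gene, so this limit is not particular to Mrpl18.

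Mrpl38, a mitochondria-specific protein of the same protuberance, was the most abundant of the 4 and had the smallest fall. It had 41.68, 43.16 and 37.1 CPM at 21 months and 53.29, 49.08, 53 and 50.8 CPM at 3 months, with no overlap. The log2 fold change was -0.34 ± 0.10 SE (edgeR adjusted p = 0.0412). With replicate number as a block the adjusted p was 0.0708, and it exceeded the threshold when any library but 21-month replicate 1 was left out (edgeR adjusted p = 0.0526 to 0.205). It was 0.108 with library size scaling, 0.0757 with DESeq2, 0.229 on the TPM scale with limma and 0.0508 with the Rn45s and Lars2 rows removed. All 4 called genes had whole-number estimated counts in every library, and each kept its direction once the shortfall of effective length, described further on, was a covariate. The log2 fold changes were then -0.46 for Mrps31, -0.43 for Mrps5, -0.42 for Mrpl18 and -0.26 for Mrpl38, and none passed (edgeR adjusted p = 0.155 to 0.316), with a median SE of 0.193 over the members against 0.147 without the covariate.

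**Figure D3:**
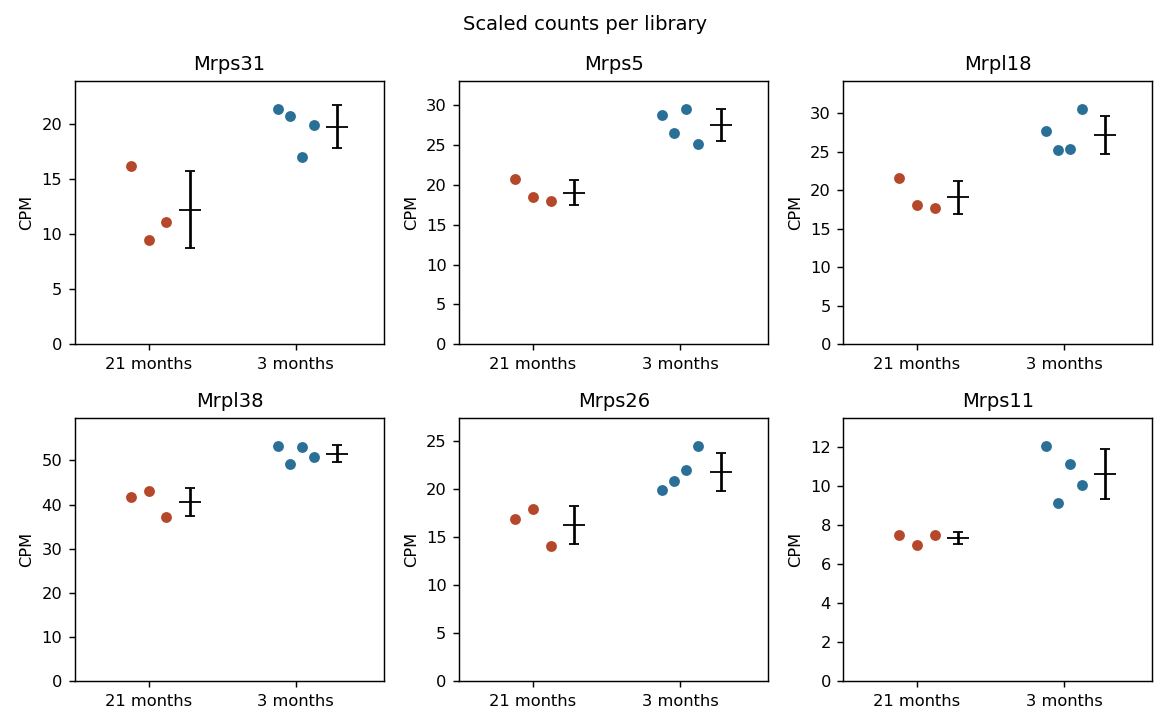
CPM per library at 21 months (left in each panel, n = 3) and 3 months (right, n = 4) for the 4 genes past the threshold and for Mrps26 and Mrps11, just outside it. Points are libraries, and the black bar is the mean with SD. In each panel all 21-month points lie below all 3-month points.

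Just outside the threshold lay Mrps26, a mitochondria-specific small-subunit protein, at 16.85, 17.88 and 14.03 CPM at 21 months and 19.89, 20.85, 22.05 and 24.51 CPM at 3 months (log2 fold change -0.42, edgeR adjusted p = 0.05005). It passed with no filter, with a mean of at least 5 CPM, with voom and with effective length as offset (adjusted p = 0.0461 to 0.0495). Mrps11, the counterpart of a bacterial platform protein, had 7.489, 6.983 and 7.492 CPM at 21 months and 12.04, 9.095, 11.13 and 10.06 CPM at 3 months (log2 fold change -0.51, edgeR adjusted p = 0.0560). Neither overlapped between ages. Mrps10, a protein of the small-subunit head, had a log2 fold change of -0.38 (edgeR adjusted p = 0.103).

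In the large subunit, Mrpl20, whose bacterial counterpart acts early in assembly, had 21.19, 13.41 and 12.49 CPM at 21 months and 27.92, 19.13, 19.62 and 23.86 CPM at 3 months. Replicate 1 of 21 months lay inside the 3-month range and the other two below it. The log2 fold change was -0.51 (edgeR adjusted p = 0.118), and the replicate block gave an adjusted p of 0.0345. Mrpl47, near the exit of the peptide tunnel, and Mrpl46, mitochondria-specific, had log2 fold changes of -0.38 and -0.36 (edgeR adjusted p = 0.382 and 0.219), again with 21-month replicate 1 within 3-month values or above them.

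The largest positive values were small, and each was moved by over 1.5 times when a single library was left out. Mrps17, a bacterial-type small-subunit protein, had 24.04, 13.69 and 14.03 CPM at 21 months and 14.05, 15.1, 14.36 and 15.42 CPM at 3 months. Only 21-month replicate 1 was high, and the log2 fold change of 0.24 (edgeR adjusted p = 0.449) was -0.09 without it. Mrpl36 likewise had 0.16 with that library and -0.06 without. Mrps27, a small-subunit protein with an RNA-binding repeat fold, had 33.99, 25 and 28.78 CPM at 21 months and 23.18, 24.97, 22.05 and 29.05 CPM at 3 months (log2 fold change 0.24, edgeR adjusted p = 0.274). Mrpl33, Mrps2 and Mrpl1 had 0.21, 0.18 and 0.18, with edgeR adjusted p-values of 0.513, 0.387 and 0.483. The lowest value with a library left out was 0.11 for Mrps27 and 0.04 for Mrpl33, both without 21-month replicate 1, 0.09 for Mrpl1 without 21-month replicate 3 and 0.11 for Mrps2 without 3-month replicate 4. Mrps27 had fractional estimated counts in 3 libraries and Mrpl1 in 6, so their values are less certain.

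The promoters of the genes named above are shown because nuclear genes for mitochondrial proteins are known targets of the factors NRF1, YY1 and the ETS family. They come from RefSeq with build GRCm38.p6, whereas the counts rest on mm9, and cover the 250 bases before the annotated start, 5′ to 3′ on the gene's strand. Capitals mark matches to NRF1 (GCGCA and GCGC with any base between them), ETS (CCGGAAG) or YY1 (AAGATGGC) on either strand. Mrps31 (chr8:22411090-22411339, plus strand) and Mrps5 (chr2:127587176-127587425, plus) were the small-subunit genes that fell. Mrpl18 (chr17:12916092-12916341, minus) fell in the large subunit. Mrps11 (chr7:78782881-78783130, plus) starts 42 bases from Mrpl46, which is read the other way. Mrpl12 (chr11:120484387-120484636, plus) had the highest level and Mrps27 (chr13:99344536-99344785, plus) the largest positive fold change. No promoter of Mrpl38 is shown.
Mrps31: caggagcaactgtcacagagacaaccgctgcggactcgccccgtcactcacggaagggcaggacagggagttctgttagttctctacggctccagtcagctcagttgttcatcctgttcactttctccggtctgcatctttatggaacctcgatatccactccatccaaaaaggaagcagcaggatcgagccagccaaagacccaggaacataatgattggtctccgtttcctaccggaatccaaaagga
Mrps5: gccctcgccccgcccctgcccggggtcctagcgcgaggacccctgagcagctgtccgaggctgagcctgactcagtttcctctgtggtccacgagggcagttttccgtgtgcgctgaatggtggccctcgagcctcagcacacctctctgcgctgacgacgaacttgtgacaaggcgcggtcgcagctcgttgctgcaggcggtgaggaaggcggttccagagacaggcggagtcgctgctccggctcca
Mrpl18: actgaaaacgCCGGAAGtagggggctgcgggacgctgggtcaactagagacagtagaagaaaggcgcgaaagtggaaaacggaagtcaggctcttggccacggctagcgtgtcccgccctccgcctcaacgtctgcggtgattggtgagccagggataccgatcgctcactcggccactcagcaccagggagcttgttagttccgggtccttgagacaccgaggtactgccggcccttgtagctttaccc
Mrps11: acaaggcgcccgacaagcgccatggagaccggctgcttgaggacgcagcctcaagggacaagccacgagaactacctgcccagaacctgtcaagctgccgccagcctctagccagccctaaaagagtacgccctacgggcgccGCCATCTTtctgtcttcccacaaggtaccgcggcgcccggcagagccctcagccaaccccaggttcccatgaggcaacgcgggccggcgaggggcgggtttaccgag
Mrpl12: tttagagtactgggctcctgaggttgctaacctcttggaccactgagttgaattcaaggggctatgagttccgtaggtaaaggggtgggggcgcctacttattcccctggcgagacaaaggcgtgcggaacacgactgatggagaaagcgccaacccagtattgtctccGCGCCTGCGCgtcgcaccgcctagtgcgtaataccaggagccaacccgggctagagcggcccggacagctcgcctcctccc
Mrps27: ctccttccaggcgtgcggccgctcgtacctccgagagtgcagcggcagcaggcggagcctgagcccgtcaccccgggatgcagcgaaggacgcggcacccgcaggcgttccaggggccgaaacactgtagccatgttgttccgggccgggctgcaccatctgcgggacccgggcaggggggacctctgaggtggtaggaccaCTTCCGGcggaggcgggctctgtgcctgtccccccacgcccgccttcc
The promoters of Mrps31 and Mrps5 hold no match in these letters, and an ETS match stands both in Mrpl18, which fell, and in Mrps27, which did not pass the test. The Mrpl18 match lies 240 to 234 bases before its start. The start of Tcp1, read the other way, is 238 bases away, so the match cannot be assigned to Mrpl18 alone. Mrps27 also has a YY1 match after its start, outside the bases shown.

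Promoters were found for 67 of the 76 genes, 41 of the large and 26 of the small subunit, and the search also took in the 50 bases after the start. An ETS match was present in 24 of them (35.8%), against 9.93% of the promoters of 27025 genes. NRF1 matched in 12 (17.9%) against 5.19%, and YY1 in 12 (17.9%) against 3.19%. At least 1 of the 3 was present in 41 (61.2%) against 16.4%. Matches of different motifs shared no letters in any of the 67. A CRE (TGACGTCA) was present in 2 (2.99%) against 2.03%, and an E-box (CACGTG) in 5 (7.46%) against 8.09%. The comparison promoters are those of all genes, including genes silent in liver, and were not matched for base composition.

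**Figure D4:**
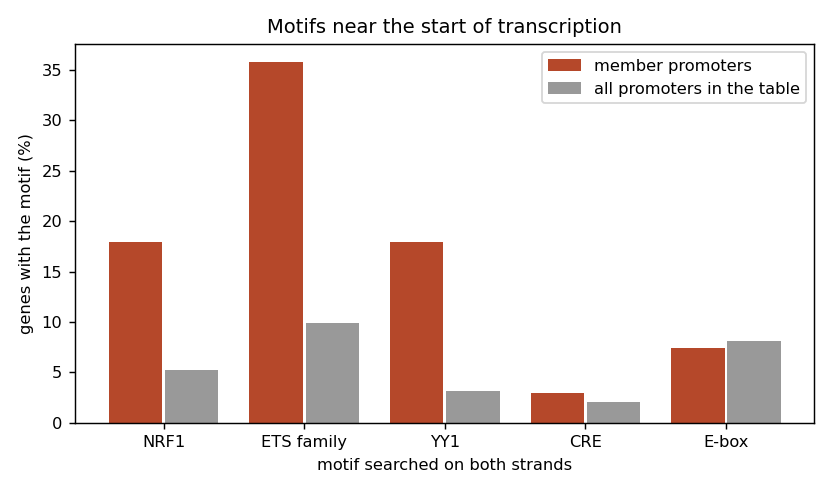
Percent of genes whose promoter window holds each motif on either strand, for the 67 mitochondrial ribosomal protein genes with a promoter (left bar) and for all 27025 genes in the table (right bar). The shares for NRF1, ETS and YY1 are 17.9%, 35.8% and 17.9% in the family, against 5.19%, 9.93% and 3.19%.

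Members with a match had the more negative median for NRF1 and ETS and the less negative one for YY1. The median log2 fold change was -0.174 with an NRF1 match and -0.13 without, -0.185 with ETS and -0.13 without, and -0.0337 with YY1 and -0.147 without. No test was made of these medians.

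Many of the genes share a promoter region with a neighbour read in the opposite direction. A start within 1000 bases and read away from the member's start was found for 25 of 67 (37.3%), against 12.3% of all genes. Of 22 such pairs with a tested partner, 1 partner was lower past the threshold and 0 were higher, against 5.86% and 5.47% of all genes. The lower partner was Ppp1r10 beside Mrps18b, at 28.9 CPM at 21 months and 44.6 CPM at 3 months (log2 fold change -0.63, edgeR adjusted p = 0.0100). The partners' median log2 fold change was -0.282, and 16 of 22 pairs had the same sign. With 75% of all members and the median partner negative, many pairs would share a sign without any link, so this count only describes the pairs. Mrps11 and Mrpl46 are both members and count as a pair from either side. Member and partner fold changes correlated with a Pearson r of 0.401 and a Spearman rho of 0.392 over the 22 pairs, as a description of values from the same libraries.

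The 21-month libraries did not behave alike across the family. Each member's log2 CPM was set against the midpoint of its age means, and the median of these deviations was 0.145, -0.186 and -0.151 in 21-month replicates 1, 2 and 3 and 0.175, -0.00581, 0.0441 and 0.0885 in 3-month replicates 1 to 4. Replicate 1 of 21 months stood among the 3-month libraries, and the other two below them all. The number of members below their midpoint was 22, 65 and 64 of 76 at 21 months and 11, 39, 30 and 18 at 3 months. Over all genes tested the same median lay between -0.00718 and 0.0117 in every library.

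The summed levels showed the same split. All members together made up 1625, 1337 and 1362 CPM at 21 months and 1698, 1488, 1545 and 1607 CPM at 3 months, or 1441 ± 160 CPM at 21 months and 1584 ± 89.9 CPM at 3 months (SD, n = 3 and n = 4), a ratio of 0.91. In TPM the sums were 2954 ± 233 at 21 months and 3026 ± 122 at 3 months, a ratio of 0.976. The spread between 21-month libraries was larger than the difference of the means on both scales. For single members the median coefficient of variation was 17.7% at 21 months and 10% at 3 months, against 13.9% and 12.4% over all genes.

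Without 21-month replicate 1, 13 members were lower past the threshold (edgeR, background 7.91% lower) and the median log2 fold change was -0.239. Without replicate 2 the count was 2 (background 4.1%) and the median -0.056, and without replicate 3 it was 0 (background 2.2%, with 6 members lower and 0 higher at an unadjusted p under 0.05) and -0.0838. The count was 2, 2, 3 and 1 without 3-month replicates 1, 2, 3 and 4, where 4.3%, 3.64%, 3.8% and 3.31% of all genes were lower. The extremes of 13 and 0 came without 21-month replicates 1 and 3.

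Other measures also differed among the 21-month libraries. The 8 Kupffer cell and macrophage markers, none at 0 in all libraries and none past the threshold, summed to 103.6, 345.2 and 260.4 TPM at 21 months and 164, 296.2, 219.1 and 151.9 TPM at 3 months, so 21-month replicate 1 was the lowest library and replicate 2 the highest. Those libraries were also lowest and highest for the 6 endothelial markers. Their sums were 65.82, 150.7 and 142.1 TPM at 21 months and 109.6, 142.2, 132.7 and 77.56 TPM at 3 months. In both marker sums 21-month replicate 3 lay below 3-month replicate 2. The shortfall of effective length below gene length, a sign of fragment length, which itself was not measured, was 35.4, 30.9 and 21.4 bases at 21 months and 36.9, 38.8, 35.7 and 34.4 bases at 3 months. With the shortfall as a covariate 0 members passed (edgeR, against 1.36% of all genes lower), 3 were lower and 1 higher at an unadjusted p under 0.05, against 9.42% and 9.61% of all genes, the median was -0.0371 and the difference between subunits -0.00737. With the Kupffer cell and macrophage marker sum as a covariate, chosen after the data were seen, 8 members were lower (edgeR, background 9.95%). The part of these measures in the result was not tested further.

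**Figure D5:**
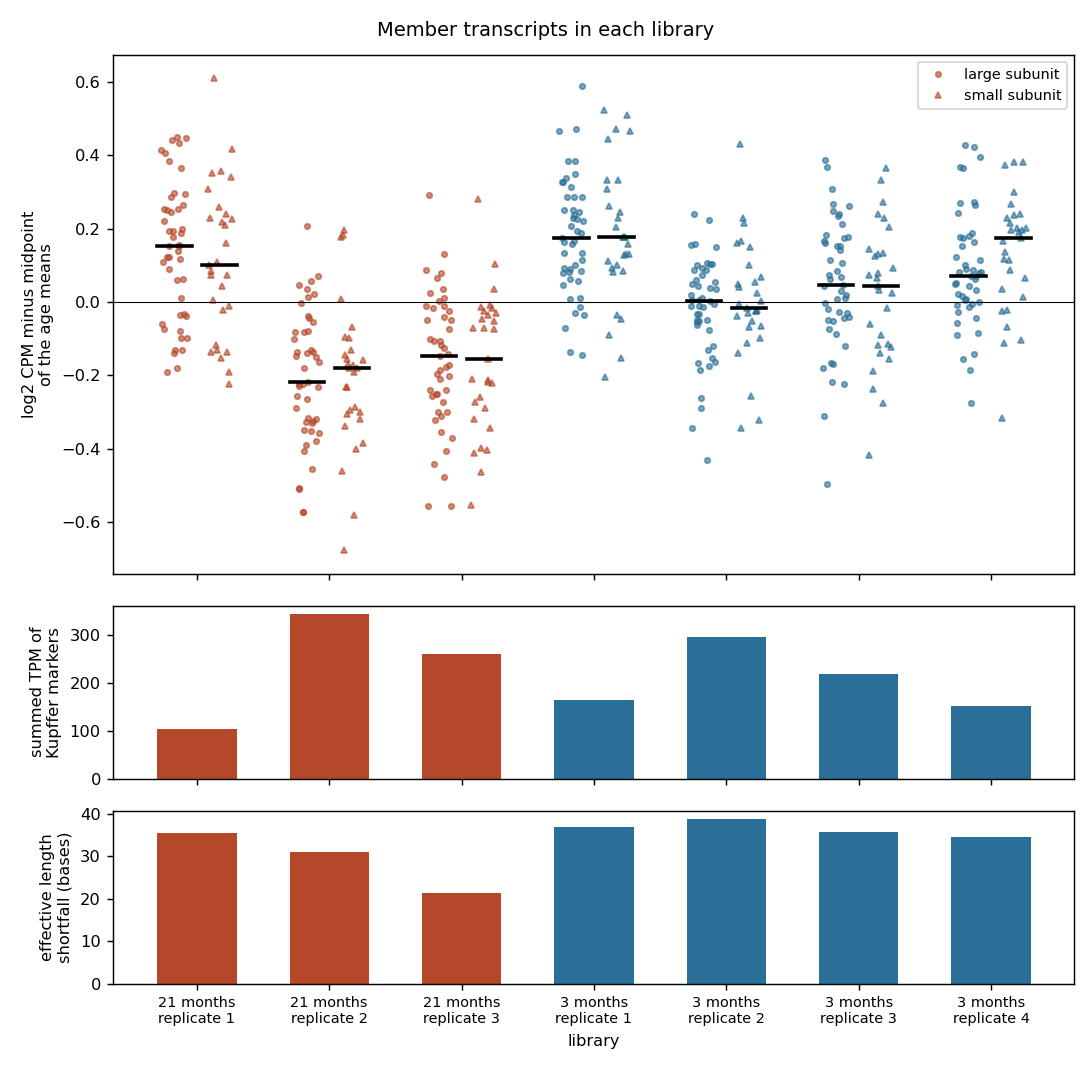
Each gene's log2 CPM minus the midpoint of its age means (top, black lines are subunit medians), the summed TPM of the Kupffer cell and macrophage markers (middle) and the effective length shortfall in bases (bottom), by library, with 21 months on the left. Replicate 1 of 21 months has a median deviation of 0.145, near 3-month libraries, and 103.6 TPM of marker transcripts, the lowest.

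The scale also mattered for size. On log2(TPM + 1) the median of all genes lay at 0.104 and that of the members at -0.0509, with 47 of 76 negative, and limma called 2 members lower (Mrpl18 and Mrps31) against 2.5% of all genes. The median of members was below that of all genes by a like amount on both scales. Other scalings, filters and tools gave similar counts of lower members, each beside its share of all genes lower. It was 4 with RLE scaling (5.49%), 3 with library size scaling (4.14%), 5 with no filter (4.26%) and 5 with a mean of at least 5 CPM (7.28%). It was 4 without robust estimation (5.64%), 3 with DESeq2 (4.75%), 5 with voom (5.96%) and 5 with effective length as offset (5.81%). It was 3 with the Rn45s and Lars2 rows removed (5.31%) and 4 with the replicate block (4.58%). In none of these or the preceding alternatives was a member higher past the threshold, against 1.59% to 8.9% of all genes.

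Genes that work with the mitochondrial ribosome were taken from lists. Over all genes 5.86% were lower and 5.47% higher past the threshold, and 13.9% and 12.7% at an unadjusted p under 0.05 (edgeR). Of 8 ribosome proteins outside the symbol rule 0 passed in edgeR (2 lower and 0 higher at an unadjusted p under 0.05), with a median log2 fold change of -0.219. Chchd1, of the small subunit, had -0.56 (edgeR adjusted p = 0.0574) and Gadd45gip1, of the large subunit, -0.35 (edgeR adjusted p = 0.0619). Both had 21-month values below all 3-month values.

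Among 15 mitochondrial translation genes 1 was lower and 0 higher (6.67% called, against 11.3% of all genes), with a median of -0.24. Letm1, an inner-membrane ion exchanger that binds mitochondrial ribosomes, fell to 69.86, 60.05 and 66.36 CPM at 21 months, against 98.73, 85.37, 88.6 and 97.38 CPM at 3 months (log2 fold change -0.50 ± 0.10 SE, edgeR adjusted p = 0.00567). It passed whichever single library was left out, and had the same log2 fold change of -0.50 with the shortfall covariate, where the adjusted p was 0.0652 (edgeR). The 19 genes that charge transfer RNAs for this ribosome, mitochondrial aminoacyl-tRNA synthetases and the amidotransferase subunits Qrsl1, Pet112 and Gatc, had 0 calls in edgeR (1 lower and 1 higher at an unadjusted p under 0.05) and a median of 0.0588. The smallest p-values there were those of Tars2 (log2 fold change -0.34, edgeR adjusted p = 0.0959) and Gatc (0.39, edgeR adjusted p = 0.104).

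Of 24 tested genes for ribosome assembly and ribosomal RNA modification 2 were lower and 0 higher (8.33% called, against 11.3% of all genes), with a median of -0.0105. Rnmtl1, a methyltransferase of the large ribosomal RNA, was at 4.04, 3.212 and 4.4 CPM at 21 months and 5.657, 6.521, 8.091 and 7.79 CPM at 3 months (log2 fold change -0.83, edgeR adjusted p = 0.0218). Dhx30, an RNA helicase of ribosome assembly, was at 23.75, 29.33 and 28.18 CPM at 21 months and 37.59, 37.67, 34.79 and 34.24 CPM at 3 months (log2 fold change -0.42, edgeR adjusted p = 0.0270). The ages did not overlap for either gene. The Rnmtl1 call ended on leaving out replicate 2 or 3 of the old group or replicate 3 or 4 of the young group (edgeR adjusted p = 0.0555 to 0.0651). The Dhx30 call ended on leaving out replicate 1 or 3 of the old group or replicate 1, 2 or 3 of the young group (edgeR adjusted p = 0.05003 to 0.0834), and it also ended with library size scaling (0.0793) and on the TPM scale with limma (0.234). With the shortfall covariate the log2 fold change was -0.98 for Rnmtl1 and -0.49 for Dhx30, no smaller than without it, and neither passed (edgeR adjusted p = 0.0849 and 0.107).

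Of 12 tested genes for mitochondrial transcription and its regulators 1 was lower and 1 higher (16.7% called, against 11.3% of all genes). Pprc1, a coactivator related to PGC-1 and known for driving mitochondrial genes, fell to 13.2, 14.94 and 12.01 CPM at 21 months, against 21.72, 24.11, 29.33 and 27.75 CPM at 3 months (log2 fold change -0.94 ± 0.14 SE, edgeR adjusted p = 0.000944). It passed in every alternative run. Ppargc1a, the gene of PGC-1 alpha, was at 4.927, 7.542 and 5.351 CPM at 21 months and 2.372, 3.518, 3.237 and 3.733 CPM at 3 months (log2 fold change 0.85 ± 0.24 SE, edgeR adjusted p = 0.0348). It was lost when any library but 21-month replicate 1 was left out (edgeR adjusted p = 0.0579 to 0.116), and with DESeq2 (0.0538) and limma on the TPM scale (0.0536). With the shortfall covariate its log2 fold change was again 0.85, with an edgeR adjusted p of 0.177.

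Of 26 genes for import and proteolysis in mitochondria 2 were lower and 0 higher (7.69% called, against 11.3% of all genes), with a median of -0.236. Hspa9, the matrix Hsp70 that pulls in proteins, averaged 241 ± 27.4 CPM at 21 months and 309 ± 17.4 CPM at 3 months (SD, n = 3 and n = 4; edgeR adjusted p = 0.0359). Timm9, a chaperone of the intermembrane space, averaged 10.6 ± 1.61 CPM at 21 months and 15.9 ± 2.88 CPM at 3 months (edgeR adjusted p = 0.0405). Hspa9 was lost when any library but 21-month replicate 1 was left out (edgeR adjusted p = 0.0510 to 0.153), with library size scaling (0.0847) and on the TPM scale with limma (0.231). For Timm9 the adjusted p was 0.104 under the replicate block, and 0.0598 to 0.153 on leaving out replicate 2 or 3 of the old group or replicate 2, 3 or 4 of the young group (edgeR). It was 0.0526 with library size scaling, 0.0598 with DESeq2 and 0.0518 on the TPM scale with limma. With the shortfall covariate the log2 fold changes were -0.39 for Hspa9 and -0.53 for Timm9, and neither passed (edgeR adjusted p = 0.146 and 0.225).

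The cytosolic ribosome and complex I, the largest respiratory complex with subunits made on this ribosome, were set beside the family. Of 77 cytosolic ribosomal protein genes tested 20 were lower and 2 higher, 28.6% against 11.3% of all genes, with a median log2 fold change of -0.173. Of 37 complex I genes 6 were lower and 0 higher (16.2%), with a median of -0.108. The median SE was 0.105 for the cytosolic list, 0.124 for complex I and 0.147 for the family, so the shares called are not at equal precision. The difference between these lists and the family was not tested. By library, the median deviation of the cytosolic ribosomal protein genes was 0.0219, -0.146 and -0.175 at 21 months and 0.0859, 0.0192, 0.0584 and 0.242 at 3 months. That of complex I genes was 0.15, -0.203 and -0.188 at 21 months and 0.144, -0.0242, 0.0716 and 0.168 at 3 months, with 21-month replicate 1 again among the 3-month libraries.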

How the data were processed

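Liver RNA of C57BL/6 mice was sequenced at 21 months (3 libraries) and 3 months (4 libraries). Per the submitters' processing notes the tools were TopHat, RSEM and edgeR and the build mm9; the sources used here give neither versions nor roles. The authors deposited expected counts (86.5% whole numbers within 0.005) and TPM per gene, which sum to 1e+06 per library. Per the file headers, the other columns are gene length and effective length; their median gap is the shortfall. Expected counts were rounded, filtered with edgeR's filterByExpr (minimum count 10, minimum total 15) and scaled by TMM. The quasi-likelihood test (robust, edgeR 4.0.16, R 4.3.3) compared 21 with 3 months over 11251 genes, with Benjamini-Hochberg adjustment and a threshold of 0.05. A log2 fold change is 21 minus 3 months, and its SE is its size divided by the root of F. CPM are per 1e+06 scaled counts. limma 3.58.1 and DESeq2 1.42.0 gave alternatives, and figures used matplotlib 3.10.9. The fit was checked on simulated counts.

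A count of 0 allows up to 3 counts, 0.257 to 0.607 CPM by library; such floors cover counting error only, since PCR reads are not independent molecules. RSEM splits reads between near-identical genes: 23 of the 76 genes had a fractional count in at least 1 library. Each pair of libraries differed by more than counting noise. The main test was unpaired. Deviations from the group means correlated at 0.107, 0.174 and 0.104 between same-numbered libraries of the ages, so pairing by number (the replicate block) was run as an alternative. However, 21-month replicate 1 also correlated at 0.159 with 3-month replicate 4. Marker and pathway lists came from textbook knowledge. Named genes were every member past the threshold, the 3 largest positive and negative fold changes among the rest of each subunit, the 5 highest and 3 lowest members by TPM in each subunit, and in each other list up to 6 called genes or the 2 smallest p-values; Tcp1, Ppp1r10 and partners of promoters were named after their values were seen. Members, lists and tests were chosen with earlier results of these data known. Promoters are RefSeq, GRCm38.p6.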

Additional observations from a re-analysis of the deposited data

Results flagged for a closer look

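Mrpl12 stood at 236.7 TPM in 3-month replicate 3, against 203.4, 203.2 and 198.4 TPM in the other 3-month libraries. Its gap to the nearest of them was 0.87 of the range of the 4 libraries, above Dixon's critical value at 95%. This was the only flag among 53 groups tested, and chance flags about 1 in 20 groups. The 21-month values were 211.8, 199.4 and 193.5 TPM.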

How the results depend on the processing

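No member was higher past the threshold under any alternative run. The members' count of 4 lower became 2 on log2(TPM + 1), where 74.9% of all calls were higher against 48.3%, and the median of all genes was 0.104. With the shortfall of effective length as a covariate, 332 genes and 0 members passed and the small-subunit median was -0.0347. With the Kupffer cell and macrophage marker sum as a covariate, chosen after seeing the data, 2121 genes and 8 members passed. The whole-count subset, also chosen after seeing the data, kept 4 of 53. Between 3 and 5 members were lower under RLE or library size scaling, no filter, a mean of at least 5 CPM, no robust estimation, DESeq2, voom, effective length as offset, or removal of the Rn45s and Lars2 rows. With the replicate block (the pairing of same-numbered libraries) 4 were lower and 1075 genes were called: Mrpl38 was lost (0.0708), Mrpl20 gained (0.0345), and of the other genes named Timm9 was lost (0.104); no other named call changed. Leaving out each library in turn gave 580 to 1642 genes and 0 to 13 members called, 45.2% to 58.8% of calls higher, and medians of -0.239 to -0.056 for all members, -0.237 to -0.0559 for the large and -0.252 to -0.0859 for the small subunit; Mrpl36 ran from -0.0616 to 0.31 and Mrps17 from -0.0929 to 0.39, both lowest without 21-month replicate 1. With a library left out, 2.2% to 7.91% of all genes were lower. The cause of the shifts between runs was not tested. The 3 or 4 libraries per age and a median SE of 0.147 limit what could be called.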
